A study of Danio rerio with 4 samples.

Results

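The Bcl-2 survival genes and the Bax genes were followed in whole zebrafish embryos. They are bcl2a, bcl2l1, bcl2l10, bcl2l13, mcl1a, mcl1b, baxa and baxb. Of these bcl2l13 is a Bcl-2 relative whose mammalian product is not an established survival protein. These 8 genes, and the gene lists used below, were chosen with earlier results of these data known. A probe belonged to the set if the RefSeq accession that the array gives it maps to 1 of the 8 symbols. Its values played no part in that step. The rule found 11 of 43603 noncontrol probes, covering all 8 genes of 11668 genes with a symbol. The genes bcl2l1, bcl2l10 and bcl2l13 had 2 probes each, numbered here from the brighter to the dimmer, and the other 5 genes had 1 probe each. The scanner software marked 88 of 88 readings of these probes (11 probes, 2 channels, 4 arrays) as clearly brighter than background, so every member entered the tests.

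The study set embryos that received a Bad morpholino as 1-cell embryos (MO-Bad, the morphant) against wild-type embryos (WT), at 12 and at 24 hours post fertilization (hpf). Each age had 2 biological replicates, each a pool of 200 whole embryos per condition, and each pair of pools shared a 2-colour Agilent array on which Cy5 marked the morphant and Cy3 the wild type. The labels name the wild-type channel as the control and give neither a strain nor a control injection, and they name no dye swap, so injection, knockdown and dye shared every ratio. The spread is that between 2 pools, and in whole embryos fewer cells of a type and less RNA per cell cannot be told apart.

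Proteins of the Bcl-2 family decide whether the outer mitochondrial membrane is opened during apoptosis. Bax inserts into that membrane and forms the pore, while Bcl-2, Bcl-xL and Mcl-1 hold Bax and its activators in check. Bad is a BH3-only protein that binds the groove of Bcl-2 and Bcl-xL and thereby blocks the survival proteins, so its known partners are products of genes in the set. Mcl-1 protein is known to be short-lived in mammalian cells.

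Median spot signals were 52 to 76 in Cy3 and 88.5 to 136 in Cy5, and 55.9% to 64.9% of noncontrol probes were well above background in a channel. Ratios of replicate arrays correlated over 28321 tested probes at r = 0.73 at 12 hpf and 0.70 at 24 hpf. Of 11 markers of later embryos (from a list of globin, muscle, lens, pigment and neutrophil genes) 11 were higher in the wild type at 24 than at 12 hpf, and of 9 tail bud and somite genes 9 were lower. The probe for badb, the gene with a Bad symbol on the array, was lower in the morphant on all 4 arrays, with a mean log2 ratio of −0.25 ± 0.07 in the earlier embryos (limma adjusted p = 0.0357) and −0.31 ± 0.15 in the later ones (limma adjusted p = 0.0160). Since the type of morpholino is not given in the labels, this mRNA level is no check of the knockdown. Log2 ratios are morphant over wild type after background correction and loess normalisation, given as mean ± SD with n = 2 arrays. A call is a limma p below 0.05 after Benjamini-Hochberg adjustment over the 28321 probes.

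During wild-type development levels in the set changed in both directions. The level of bcl2a, the zebrafish Bcl-2 gene, was the member level that rose most, and the levels of bcl2l10, mcl1a, bcl2l1 and baxb fell. Over the 11 probes 2 were called higher at 24 than at 12 hpf, 6 lower and 3 were not called. Of all tested probes 69% were called (29.1% higher and 39.9% lower), so the members' share is close to that of the array. By gene 2 of 8 were higher and 4 lower, against 75% of genes (34.3% higher and 40.7% lower). The wild-type levels of the 2 ages did not overlap for 9 of the 11 probes, and 85.2% of all tested probes had such a gap.

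The bcl2a log2 level in the wild type was 6.99 and 7.26 at 12 hpf and 9.21 and 9.18 at 24 hpf. The ages lay far apart, with a difference of 2.07 ± 0.11 (SE), or 4.19-fold (limma adjusted p = 1.0e-05). The size of the rise depended on the processing, from 1.93 to 2.89 log2 units over 13 alternatives, all of them called. The Cy3 spots were dim at 12 hpf, at 65 and 86 units over local backgrounds of 34 and 30, against 500.5 and 441 over 32 and 29 at 24 hpf. The offset of 50 units added in background correction is of the order of these 12 hpf signals, and such an offset makes a fold smaller. The gene bcl2l10 encodes the relative of mammalian BCL2L10 and avian Nr-13. Its probe 1 read 14.23 and 14.31 at 12 hpf and 12.97 and 12.69 at 24 hpf, and its probe 2 read 12.76 and 12.71, then 10.73 and 10.86. Both probes fell, probe 1 by 1.44 ± 0.11 (SE; limma adjusted p = 5.3e-05) and probe 2 by 1.94 ± 0.08 (SE; limma adjusted p = 4.8e-06).

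The Mcl-1 paralogues went opposite ways in the wild type. The mcl1a level was 12.71 and 12.61 at 12 hpf against 11.78 and 11.88 at 24 hpf, and it fell by 0.83 ± 0.08 (SE; limma adjusted p = 1.9e-04). The mcl1b level was 11.44 and 11.47 at 12 hpf against 12.28 and 12.53 at 24 hpf, a rise of 0.95 ± 0.10 (SE) or 1.93-fold (limma adjusted p = 2.7e-04). Within either gene the replicates of an age were closer to each other than to any array of the other age. Levels of different probes are not compared, since brightness depends on the probe.

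The Bcl-xL gene bcl2l1 read 11.45 and 11.47 at 12 hpf and 10.91 and 10.96 at 24 hpf on probe 1, and 10.32 and 10.31, then 9.83 and 9.65, on probe 2. It fell from 12 to 24 hpf on both of its probes. The fall was 0.52 ± 0.08 on probe 1 (SE; limma adjusted p = 0.00104) and 0.58 ± 0.09 on probe 2 (SE; limma adjusted p = 0.00142). The baxb level was 9.22 and 9.18 at 12 hpf and 8.60 and 8.63 at 24 hpf, a fall of 0.58 ± 0.08 (SE; limma adjusted p = 6.4e-04). The other Bax gene, baxa, was not called, with 13.80 and 13.86 at 12 hpf and 13.64 and 13.89 at 24 hpf (−0.07 ± 0.10 SE, limma adjusted p = 0.592). With the green channel alone, centred on each array's median, baxa was at −0.44 (limma adjusted p = 0.00894). Neither probe of bcl2l13 was called (0.04 ± 0.08 and −0.16 ± 0.08 SE, limma adjusted p = 0.649 and 0.124). Probe 2, which is dim, was called lower with no background subtraction (−0.25, limma adjusted p = 0.0436) and with quantile-normalised processed signals (−0.66, limma adjusted p = 0.0288).

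**Figure D1:**
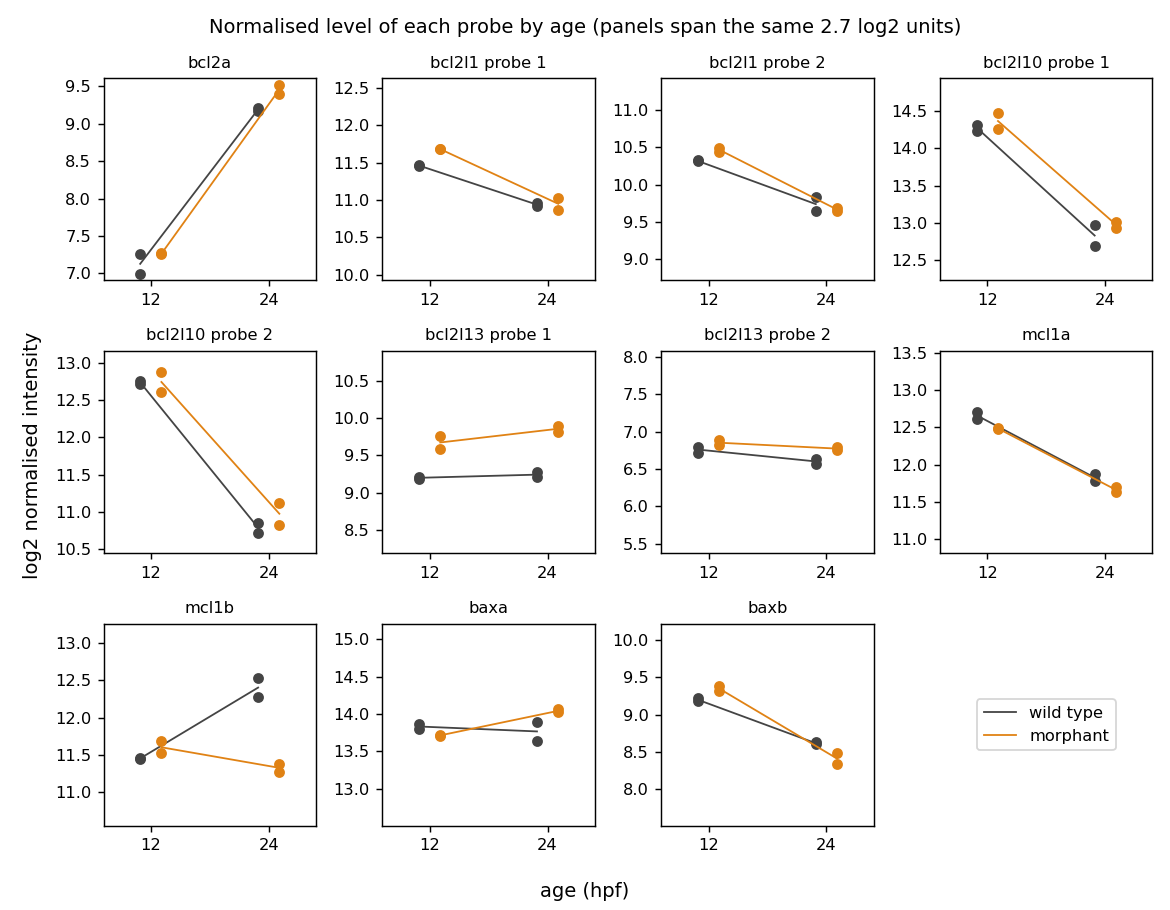
Normalised log2 intensity of each of the 11 probes (vertical axis) at 12 and 24 hpf (horizontal axis) in the wild type (grey) and the morphant (orange). The vertical axes of all panels span the same number of log2 units, each around its own midpoint. Points are single arrays and lines join the means of 2 arrays. The mcl1b lines part at 24 hpf, where the wild type is at 12.28 and 12.53 and the morphant at 11.28 and 11.38, while the bcl2a lines rise together.

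The largest difference between morphant and wild type in the set was the lower level of mcl1b at 24 hpf. For mcl1b the replicates gave log2 ratios of 0.08 and 0.22 at 12 hpf and of −0.999 and −1.15 at 24 hpf. The ages did not overlap, and the morphant was above the wild type on both earlier arrays and below it on both later ones. At 24 hpf the mean was −1.07 ± 0.11, or 2.1-fold lower in the morphant (limma adjusted p = 4.8e-05), and at 12 hpf it was 0.15 ± 0.10 (limma adjusted p = 0.161). The change of the ratio from 12 to 24 hpf was −1.22 ± 0.10 (SE; limma adjusted p = 4.7e-04).

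The unprocessed spots also gave a lower ratio at 24 than at 12 hpf, but no change of sign, since Cy5 was brighter than Cy3 on every array. The morphant spot was also brighter at 24 than at 12 hpf, while its normalised level was lower. In Cy3, the wild type, the mcl1b spot signal was 1748.5 and 2039 at 12 hpf and 3744 and 3970 at 24 hpf. In Cy5, the morphant, it was 3705.5 and 3677 at 12 hpf and 4089 and 4334 at 24 hpf, over local backgrounds of 43 to 49 units. The wild-type spot was brighter at 24 hpf than at 12 hpf by far more than the morphant spot. After plain background subtraction the log2 ratio was 1.09 and 0.85 at 12 hpf and 0.12 and 0.12 at 24 hpf. The medians of all tested probes on the same arrays were 0.97, 0.57, 1.00 and 1.15, all above 0. On the normalised scale the morphant mcl1b level was 11.52 and 11.69 at 12 hpf and 11.28 and 11.38 at 24 hpf, a mean change of −0.28, against the wild-type rise of 0.95.

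The mcl1b call at 24 hpf held without any 1 of the 4 arrays. On the signals that the scanner software had processed, the mcl1b call at 24 hpf was lost, at −1.12 (limma adjusted p = 0.0548). On the deposited ratios, which are nearly the same numbers for mcl1b, it was kept, at −1.12 (limma adjusted p = 0.0492). It was also lost when arrays were median centred and not loess normalised, at −0.68 (limma adjusted p = 0.134), which is −0.82 relative to the median of all tested probes under that setting. The change between ages lost its call under 3 of 13 settings, at −1.24 with processed signals, with the deposited ratios and with median centring (limma adjusted p = 0.113, 0.106 and 0.717). Under each of these 3 settings 0 of the 28321 tested probes were called for the change.

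The paralogue mcl1a did not follow mcl1b. Its log2 ratio was −0.21 and −0.14 at 12 hpf and −0.15 and −0.18 at 24 hpf. All 4 arrays lay below 0 and the ages overlapped. The means were −0.18 ± 0.05 and −0.16 ± 0.02, and neither was called (limma adjusted p = 0.0771 and 0.0942). Under median centring both means lay above 0, at 0.31 and 0.22, which is 0.13 and 0.08 relative to the median of all tested probes.

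The gene bcl2l13, whose mammalian product Bcl-rambo sits in the outer mitochondrial membrane and acts as a mitophagy receptor, was higher in the morphant at both ages by its brighter probe. Probe 1 gave log2 ratios of 0.55 and 0.40 at 12 hpf and 0.62 and 0.61 at 24 hpf. The morphant was higher on all 4 arrays, with means of 0.47 ± 0.10 (1.39-fold, limma adjusted p = 0.00140) and 0.61 ± 0.01 (1.53-fold, limma adjusted p = 4.7e-04). The change from 12 to 24 hpf was 0.14 ± 0.09 (SE) and was not called (limma adjusted p = 0.384).

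Probe 2 of bcl2l13 gave smaller ratios of 0.09 and 0.10 at 12 hpf and 0.16 and 0.19 at 24 hpf. They were above 0 on all 4 arrays too, but neither age was called (limma adjusted p = 0.323 and 0.0773). With no background subtraction the 24 hpf value was 0.28 and was called (limma adjusted p = 0.0195), and with processed signals it was 0.38 and was not (limma adjusted p = 0.128). Probe 1 lay above probe 2 on every array, by 0.46 and 0.30 at 12 hpf and 0.46 and 0.42 at 24 hpf. Probe 2 was dim, with Cy3 spots of 52 to 62.5 units over local backgrounds of 27 to 30. The call at 24 hpf rests on probe 1, and it was lost with processed signals (0.67, limma adjusted p = 0.0603), with the deposited ratios (0.67, limma adjusted p = 0.0563) and with median centring (0.88, limma adjusted p = 0.0885). At 12 hpf its call was lost with median centring alone among 12 alternatives (0.78, limma adjusted p = 0.0953).

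**Figure D2:**
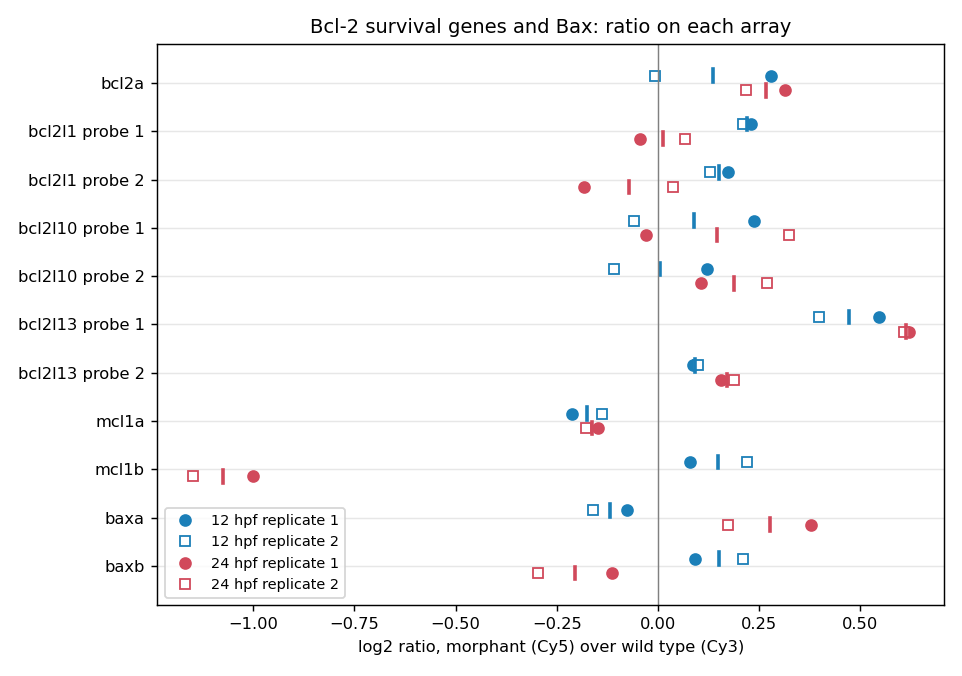
Log2 ratio of morphant over wild type (horizontal axis) for each probe of the 8 genes on each array. Blue is 12 hpf and red 24 hpf, filled circles are replicate 1, open squares replicate 2, and vertical bars the means of 2 arrays. The 24 hpf values of mcl1b, at −0.999 and −1.15, stand apart to the left, and those of bcl2l13 probe 1, at 0.62 and 0.61, lie farthest to the right.

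The genes of the known partners of Bad, Bcl-xL and Bcl-2, were each called at 1 age. For bcl2l1, probe 1 gave 0.23 and 0.21 at 12 hpf and −0.05 and 0.07 at 24 hpf, and probe 2 gave 0.17 and 0.13, then −0.18 and 0.04. On both probes the 12 hpf arrays lay above the 24 hpf arrays. Probe 1 was called at 12 hpf at 0.22 ± 0.01 (1.16-fold, limma adjusted p = 0.0374) and probe 2 was not (0.15 ± 0.03, limma adjusted p = 0.165). That call was lost without 12 hpf replicate 1 (limma adjusted p = 0.212), without 12 hpf replicate 2 (0.138) and under 5 other settings. With median centring the 12 hpf values were 0.63 on probe 1 and 0.50 on probe 2, or 0.46 and 0.33 relative to the median of all tested probes, and neither was called. The change of the ratio from 12 to 24 hpf was −0.21 and −0.22 on the 2 probes and was not called (limma adjusted p = 0.189 and 0.205).

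The bcl2a log2 ratio was 0.28 and −0.01 at 12 hpf and 0.31 and 0.22 at 24 hpf. The 12 hpf arrays disagreed in sign, and both 24 hpf arrays were above 0 with a mean of 0.27 ± 0.07 (1.20-fold, limma adjusted p = 0.0403). The call was lost without 24 hpf replicate 1 (0.22, limma adjusted p = 0.271), without 24 hpf replicate 2 (0.31, limma adjusted p = 0.115) and under 5 other settings, among them median centring at 0.52 (0.37 relative to the median of all tested probes).

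For bcl2l10 no ratio was called. Probe 1 gave 0.24 and −0.06 at 12 hpf and −0.03 and 0.32 at 24 hpf, and probe 2 gave 0.12 and −0.11, then 0.11 and 0.27. Replicates of an age differed in sign in 3 of these 4 pairs. The probes moved together from array to array, differing by at most 0.14.

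The Bax duplicates were opposite in sign at 24 hpf as processed here, though only baxa was called. The baxa log2 ratio was −0.08 and −0.16 at 12 hpf and 0.38 and 0.17 at 24 hpf. The ages did not overlap, with the morphant below the wild type on both earlier arrays and above it on both later ones. At 24 hpf the mean of 0.28 ± 0.14 (1.21-fold) was called (limma adjusted p = 0.0242), at 12 hpf −0.12 ± 0.06 was not (limma adjusted p = 0.266). The change of 0.39 ± 0.10 (SE) from 12 to 24 hpf was called (limma adjusted p = 0.0432).

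The baxb log2 ratio ran the other way, with 0.09 and 0.21 at 12 hpf and −0.11 and −0.30 at 24 hpf. Its ages did not overlap either. No mean was called, with 0.15 ± 0.08 at 12 hpf (limma adjusted p = 0.164), −0.20 ± 0.13 at 24 hpf (limma adjusted p = 0.0688) and a change of −0.35 ± 0.10 (SE; limma adjusted p = 0.0599). With robust variance estimation the change was called (limma adjusted p = 0.0494). The 24 hpf call of baxa was lost without 24 hpf replicate 1 (0.17, limma adjusted p = 0.308) and under 4 other settings. One of these was median centring, at 0.85 (0.71 relative to the median of all tested probes). Under median centring baxb was at 0.0025 at 24 hpf, which is −0.15 relative to that median, and it was not called. The change of baxa between ages lost its call under 8 of 13 settings, among them those without 12 hpf replicate 1 (0.44, limma adjusted p = 0.0783), without 12 hpf replicate 2 (0.35, 0.113) and without 24 hpf replicate 1 (0.29, 0.209).

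Counted over the set, 2 of 11 probes were called higher and 0 lower at 12 hpf, where 3 had an unadjusted p under 0.05 in limma, against 35.3% of all tested probes. Of all tested probes 21.5% were called at 12 hpf (12.2% higher and 9.35% lower), so the members' share is no larger than that of the array. At 24 hpf 3 probes were called higher, 1 lower and 7 not, against 21.1% of all tested probes (10.2% higher and 10.9% lower). An unadjusted p under 0.05 in limma was found for 8 of the 11 probes at 24 hpf, against 35.3% of all tested probes there. By gene, with the brightest probe of each, 2 of 8 were called at 12 hpf, against 23.3% of 10207 genes (12.4% higher and 10.9% lower). At 24 hpf 3 of 8 genes were called higher and 1 lower, against 26.2% of genes (12.1% higher and 14.1% lower). With median centring 0 of the 11 probes were called at either age, and limma then gave 7 and 5 of them an unadjusted p under 0.05. The median log2 ratio of the 11 probes was 0.13 at 12 hpf and 0.15 at 24 hpf, against 0.01 and 0.00 for all tested probes. By gene the medians were 0.14 and 0.08, against −0.0007 and −0.003 for all genes.

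For the change of the ratio between ages 2 probes were called, baxa upward and mcl1b downward, against 8.46% of all tested probes (3.11% upward and 5.35% downward). By gene these were 2 of 8, against 10.8% of genes (4% upward and 6.84% downward). Arrays of the ages did not overlap for 7 of the 11 member probes, and for 55.7% of all tested probes. Both arrays of an age had the same sign for 8 member probes at 12 hpf and for 8 at 24 hpf, against 73.5% and 73.8% of all tested probes. A ratio of the same sign on all 4 arrays was found for 3 member probes, both of bcl2l13 and that of mcl1a, and for 38.7% of all tested probes. The log2 ratios at 12 and 24 hpf share no array, but their tests share a single estimate of the spread, taken over all 4 arrays.

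**Figure D3:**
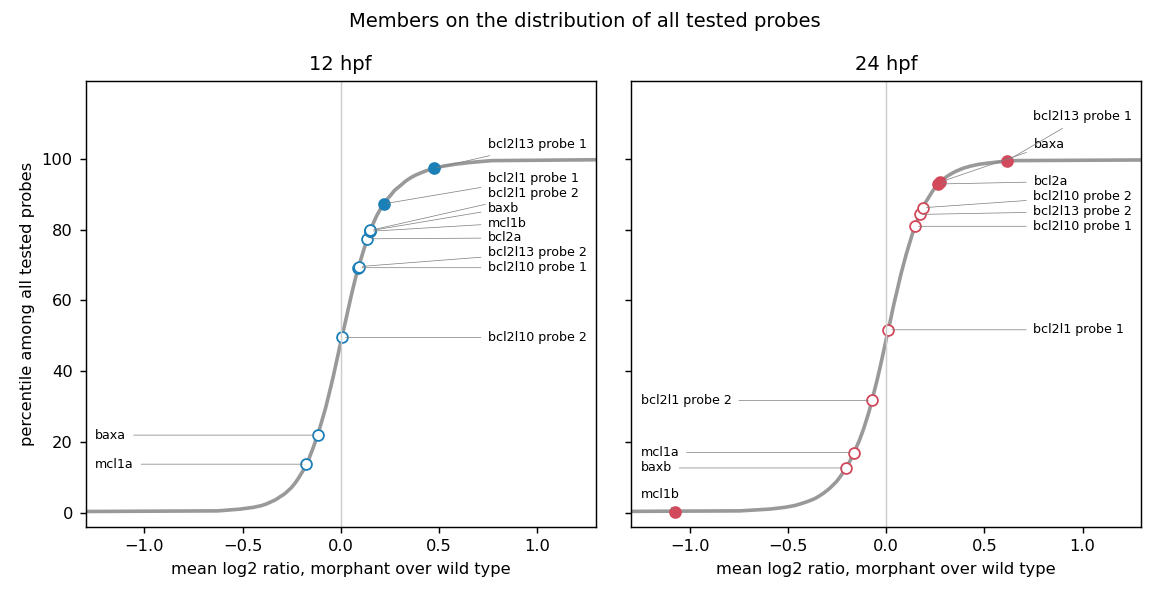
Mean log2 ratio (horizontal axis) and percentile (vertical axis) of each member among the 28321 tested probes, drawn on the curve of all of them, at 12 hpf (left) and 24 hpf (right). Filled points were called by limma. At 24 hpf mcl1b is at percentile 0.152 and bcl2l13 probe 1 at 99.4, and the other members lie between 12.6 and 93.5.

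Other family members on the array moved both ways too. Of 23 further Bcl-2 family symbols 10 were on the array and 9 were tested, of which limma called 1 higher and 2 lower in the earlier embryos. In the later embryos 3 were higher and 3 lower. Of all genes 23.3% and 26.2% were called at these ages. Their median log2 ratio was −0.06 and 0.04, against 0.00 for all genes at either age. Bbc3 (Puma), a BH3-only activator of Bax, was at −0.63 and −0.94 at 12 hpf and 0.42 and 0.25 at 24 hpf, and both means were called (−0.78 ± 0.22 and 0.33 ± 0.12, limma adjusted p = 3.3e-04 and 0.0217). The Bax-like effector gene bokb was higher at both ages (0.36 ± 0.04 and 0.45 ± 0.01, limma adjusted p = 0.00416 and 0.00150). At 24 hpf the mitophagy receptor gene bnip3lb was lower (−0.71 ± 0.14, limma adjusted p = 3.3e-04), as was the BH3-only gene bik (−0.26 ± 0.20, limma adjusted p = 0.0403), and the BH3-only gene bmf1 was higher (0.24 ± 0.13, limma adjusted p = 0.0383).

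Among genes that act at the mitochondrial membrane or after it is opened, 15 of 20 listed were tested. At 12 hpf 2 were higher, cytochrome c (cycsb, 0.41 ± 0.03, limma adjusted p = 0.00416) and the Smac gene diabloa (0.40 ± 0.10, limma adjusted p = 0.00304), and 1 was lower, bag6 (−0.43 ± 0.13, limma adjusted p = 0.00279). At 24 hpf 2 were higher and 4 lower, again against 23.3% and 26.2% of all genes called at 12 and 24 hpf. The higher genes were cycsb (0.62 ± 0.16, limma adjusted p = 6.4e-04) and the mitochondrial nuclease gene endog (0.24 ± 0.08, limma adjusted p = 0.0287). The lower ones were diabloa (−0.64 ± 0.02, limma adjusted p = 3.8e-04), bag6 (−0.36 ± 0.03, limma adjusted p = 0.00697), the initiator caspase gene casp9 (−0.32 ± 0.18, limma adjusted p = 0.0152) and the caspase inhibitor gene xiap (−0.28 ± 0.07, limma adjusted p = 0.0152). Diabloa thus changed sign between ages, by −1.05 ± 0.09 (SE; limma adjusted p = 6.9e-04).

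Markers of developmental age and of the p53 response also differed between morphant and wild type. Their part in the results for the set was not tested. The counts of morphant against wild type that follow stand beside array-wide shares at 12 hpf of 12.4% of genes higher and 10.9% lower. The shares at 24 hpf were 12.1% higher and 14.1% lower. At 12 hpf 0 of the 11 later markers were higher in the morphant and 1 lower. Of the 9 tail bud and somite genes 1 was higher there and 0 lower. At 24 hpf 8 of the later markers were higher in the morphant and 0 lower, and 7 of the tail bud and somite genes were lower and 0 higher. In units of 1000, the summed normalised intensity of the later markers at 24 hpf was 257 and 259 in the wild type and 364 and 367 in the morphant. That of the earlier markers was 18.7 and 18.8 against 12.3 and 13.1. The blood genes counted below, whose globins are also in the later marker sum, came to 199 and 198 against 288 and 290 at 24 hpf. At 12 hpf 4 and 5 of the later markers were not well above background in the wild type. Of 9 p53 pathway genes tested, 8 were lower and 0 higher in the earlier morphants, and 3 higher and 0 lower in the later ones. Their summed intensity at 12 hpf was 87.9 and 92.5 in the wild type against 69.8 and 68.4 in the morphant, and at 24 hpf it was 125 and 153 against 176 and 175. Of 11 maternal or egg mRNAs 4 were higher and 1 lower at 12 hpf, while 2 were higher and 1 lower at 24 hpf. Of 6 blood genes, of which the globins are also later markers, 1 was higher and 1 lower at 12 hpf, while 3 were higher and 0 lower at 24 hpf. Of 5 yolk syncytial layer genes 3 were higher and 1 lower at 12 hpf, and at 24 hpf 1 was higher and 0 lower, with 1 outlier spot dropped from 24 hpf replicate 2.

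The member with the widest spread of level over the 8 channels was bcl2a, with a standard deviation of 1.15 log2 units. Of 9605 other named genes the nearest to it in centred profile were dbx1b, a homeobox gene of the neural tube, tek, which encodes the endothelial receptor Tie2, and the Delta ligand gene dlb. Their root mean square distances were 0.08, 0.09 and 0.09 log2 units over the 8 channels (2 conditions on 4 arrays). Their wild-type rises from 12 to 24 hpf were 2.15, 2.04 and 2.14, next to 2.07 for bcl2a. Since they were picked for nearness over these channels, a like rise and like ratios were built into the choice. Their mean log2 ratios were 0.24, 0.10 and 0.27 at 12 hpf, next to 0.13 for bcl2a. At 24 hpf they were 0.11, 0.35 and 0.20, next to 0.27. The ratios of dbx1b and dlb were called at 12 hpf only, and those of tek and bcl2a at 24 hpf only. The channels share 4 arrays.

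**Figure D4:**
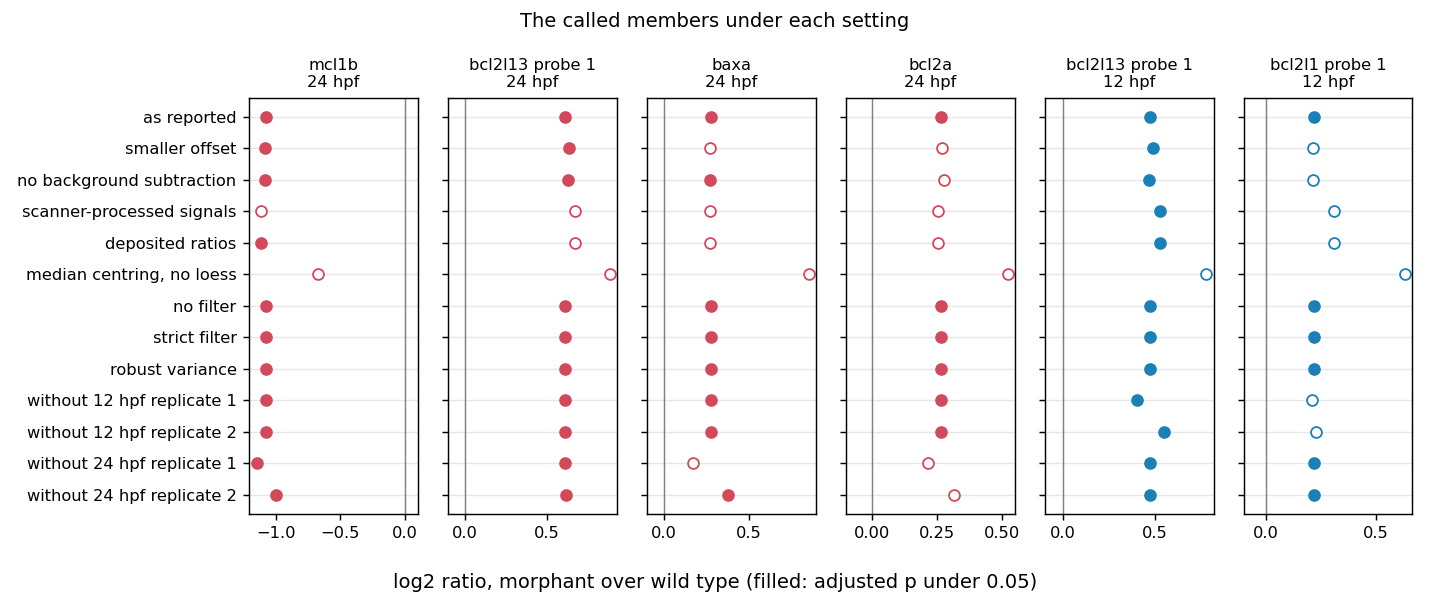
Log2 ratio of morphant over wild type (horizontal axis, scaled per panel) of the 6 called results under the reported processing and 12 alternatives (rows). Filled points passed the limma threshold and open points did not. All points of a panel lie on the same side of 0, and mcl1b at 24 hpf is open in 2 rows only, with the scanner-processed signals and with median centring. The rows for the filters, for robust variance and without an array of the other age repeat the reported value by construction.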

How the data were processed

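RNA of pooled embryos was hybridised to 4 Agilent 2-colour arrays and quantified in Agilent Feature Extraction 10.5.1.1, per the submitters' processing notes. The deposited scanner tables give, per the file headers, median spot and local background intensity of each channel without normalization. They also give processed signals, intensity that this software had corrected for background and dye. The authors' deposited value table holds log10 ratios of Cy5 over Cy3 and matched the scanner's own ratios (largest difference 0).

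Background was corrected with normexp (offset 50) and log2 ratios were normalised by loess within arrays, with 1417 control spots of 45220 and 10 to 18 outlier spots per array at weight 0. No spot was saturated (0). The tests took probes that passed the background flag in 1 or both channels on both arrays of an age (28321 of 43603). Symbols came from RefSeq accessions, for 16770 of 19210 probes with one. Limma 3.58.1 under R 4.3.3 fitted a mean per age over the 4 arrays, with 2 residual and 7.50 prior degrees of freedom. Wild-type levels were Cy3 log2 intensities after loess and Aquantile normalisation. The loess and limma steps were also run on simulated arrays with known changes in a small share of the probes. That simulation does not address how the calls depend on the processing. All 11 probes are reported, and of the 2 gene lists the up to 6 called genes with the largest ratios, each by its brightest probe. The members and lists were chosen with earlier results of these data known. Same-numbered replicates did not deviate together from their age means (r = −0.04).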

Additional observations from a re-analysis of the deposited data

Results flagged for a closer look

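The morphant effect differed between ages for 2 of the 11 probes. For mcl1b the log2 ratio at 24 hpf minus that at 12 hpf was −1.22 ± 0.10 (SE; limma adjusted p = 4.7e-04). For baxa it was 0.39 ± 0.10 (SE; limma adjusted p = 0.0432). The call was lost under 3 of 13 alternatives for mcl1b and under 8 of 13 for baxa. Under the 3 settings that lost the mcl1b call, 0 of all tested probes were called for the change, and mcl1b was at −1.24. Processed signals and deposited ratios, which are among these 3, use nearly the same ratios. Both arrays of an age had the same sign in either gene. With 2 arrays per age no array could be tested as an outlier.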

How the results depend on the processing

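The count of called member probes was 2 at 12 hpf, 4 at 24 hpf, 2 for the change between ages and 8 for wild-type development. With the smaller background offset of 10 it was 1, 2 and 1 for the first 3 comparisons, and with no background subtraction 1 at 12 hpf and 1 for the change. With the scanner software's processed signals it was 1, 0 and 0, and with the deposited ratios 1, 1 and 0. These 2 settings use nearly the same ratios for the member probes, so they are not independent alternatives. Median centring in place of loess gave 0, 0 and 0, where limma gave an unadjusted p under 0.05 for 7, 5 and 1 member probes. With processed signals 5 at 24 hpf and 3 for the change had such a p, and with the deposited ratios 3 for the change. Leaving out 1 array gave 1 to 2 at 12 hpf, 2 to 4 at 24 hpf, 1 to 2 for the change and 8 throughout for wild-type development. Robust variance estimation gave 3 for the change, adding baxb. The last count was 8 or 9 under the other alternatives. The cause of these moves was not tested.

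Over all tested probes the calls at 12 and 24 hpf went from 6103 and 5973 to 2192 and 15 with processed signals, 2275 and 100 with the deposited ratios, and 337 and 1 with median centring, under which 324 of the 337 were higher (3454 of 6103 as reported) and the median of all probes was 0.18 and 0.15. The smaller offset gave 2971 at 24 hpf and 259 for the change, against 2396, and the 3 settings above gave 0 there. Without 12 hpf replicate 1 the calls were 2351 at 12 hpf and 1268 for the change, without 12 hpf replicate 2 4046 at 12 hpf, without 24 hpf replicate 1 2457 at 24 hpf and 1195 for the change, and without 24 hpf replicate 2 2654 and 1387. The replicate number as a block gave 2 called member probes for the change and 8 for wild-type development, as without it.

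Of the single probe values under alternatives 485 kept direction and side of the threshold, 36 lost a call and 5 gained 1. Another 24 changed sign, all called neither way. The filter settings and robust variance estimation leave every value as it was and can move only its p. The same holds for a ratio at 1 age when an array of the other age is left out. Many of the 485 thus kept direction by construction. With the smaller offset bcl2l10 probe 2 was at −0.0013 at 12 hpf, and its probes were at −0.032 and −0.044 with processed signals and with the deposited ratios. Median centring put mcl1a at 0.31 and baxa at 0.46 at 12 hpf, bcl2l1 probe 2 at 0.20, mcl1a at 0.22 and baxb at 0.0025 at 24 hpf, and the change at −0.086 for bcl2l10 probe 1 and −0.085 for mcl1a. The cause was not tested.

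Leaving out 1 array, with fewer arrays by construction, the values that changed sign ranged as follows. At 12 hpf bcl2a ran from −0.0082 to 0.28, bcl2l10 probe 1 from −0.059 to 0.24 and its probe 2 from −0.11 to 0.12. At 24 hpf bcl2l1 probe 1 ran from −0.045 to 0.068, its probe 2 from −0.18 to 0.038, and bcl2l10 probe 1 from −0.031 to 0.32. The change between ages ran from −0.012 to 0.27 for bcl2a, from −0.12 to 0.23 for bcl2l10 probe 1 and from −0.026 to 0.049 for mcl1a. In wild-type development baxa ran from −0.19 to 0.056. With 2 arrays per age and no dye swap, changes of the size of bcl2l1, bcl2a and baxa are at the limit of these arrays.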

Other observations

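The profile of mcl1b over the 8 channels was set against all 9605 other named genes, a choice made after its values were seen. The nearest was gfi1aa, a transcription factor gene of primitive red blood cells, at a distance of 0.10 log2 units, and the next were pdha1b, a pyruvate dehydrogenase subunit gene, and mdm4, a p53 inhibitor gene, both at 0.18. The gfi1aa log2 ratio was −0.10 and −0.02 at 12 hpf and −1.08 and −1.22 at 24 hpf, that of pdha1b −0.01 and 0.07, then −1.09 and −1.40, and that of mdm4 0.32 and 0.12, then −0.79 and −0.59. In the wild type all 3 were higher at 24 than at 12 hpf, by 0.86, 1.26 and 0.79. Since these genes were picked for nearness over the same channels, like ratios and a like rise were built into the choice. A likeness over 8 channels of 4 arrays is a description of these arrays.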
